A study of Mus musculus with 10 samples.

Results

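Hemoglobin is built from alpha-like and beta-like globin chains, and 7 of the 24470 gene entries in the count table were analysed here because they encode these chains in the mouse: the 3 embryonic genes Hba-x, Hbb-y and Hbb-bh1, and the 4 adult genes Hba-a1, Hba-a2, Hbb-bs and Hbb-bt. They were chosen by gene symbol. Their RNA was measured in 10 cultured testes of C57BL/6 mouse embryos taken at E12.5. From each of 5 embryos, M1 to M5, 1 gonad with its mesonephros was cultured for 48 h with the vehicle DMSO and the other with 75 µM of GPI, a small-molecule inhibitor of glycogen phosphorylase, the enzyme that frees glucose units from glycogen. GPI was given to the whole explant and does not distinguish among the phosphorylase isozymes. Its reach into single cells was not measured. After culture the testis was dissected from the mesonephros, and RNA of the whole organ, including any blood cells in its vessels, was sequenced.

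As background, the first red cells of the mouse embryo arise in the yolk sac and make embryonic globins, and red cells made later in the fetal liver carry mainly adult globins. In each globin cluster the genes are arranged along the chromosome roughly in the order of their use in development, and distant enhancers serve all genes of a cluster. Maturing red cells lose their nucleus and keep globin mRNA for some time. The testis makes no red cells of its own, so globin RNA in a dissected gonad is usually taken as a sign of blood cells.

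The beta-like genes lie on the minus strand of chromosome 7 (build mm10). Hbb-y (Entrez Gene 15135) spans 103851754 to 103853207, Hbb-bh1 (15132) 103841638 to 103843162, Hbb-bs (100503605) 103826523 to 103827928 and Hbb-bt (101488143) 103812524 to 103813923. The alpha-like genes lie on the plus strand of chromosome 11: Hba-x (15126) spans 32276600 to 32278116, Hba-a1 (15122) 32283672 to 32284486 and Hba-a2 (110257) 32296492 to 32297310. Each transcript has 3 exons. Adult copies within a cluster are nearly the same sequence. The coding sequences of Hbb-bs and Hbb-bt differ at 1 of 441 bases and those of Hba-a1 and Hba-a2 at 1 of 426, whereas Hbb-y and Hbb-bs share 74.4% of their coding bases and Hba-x and Hba-a1 61.7%. Of the stretches of 150 bases, about a read's length, in the Hbb-bs transcript, 58.7% also occur in Hbb-bt, and of those in Hba-a2, 65.7% also occur in Hba-a1. Pairs that match both copies equally are not counted by default, so levels of the adult genes may be too low. No such stretch of Hba-x, Hbb-y or Hbb-bh1 was found in a transcript of another gene, so the embryonic and adult classes can be told apart.

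The 120 bases before the start of 5 of the genes are shown because the embryonic and adult genes of a cluster had different fold changes. They come from RefSeq promoters of build GRCm38.p6, which matched 6 of the 7 genes (Hbb-bh1 was not matched). The regions are chr7:103853208-103853327, chr7:103827929-103828048 and chr7:103813924-103814043 on the minus strand, and chr11:32276480-32276599 and chr11:32283552-32283671 on the plus strand, each written 5′ to 3′ along its gene.
Hbb-y: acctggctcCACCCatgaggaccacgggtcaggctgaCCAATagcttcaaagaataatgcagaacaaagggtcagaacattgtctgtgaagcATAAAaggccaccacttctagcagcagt
Hbb-bs: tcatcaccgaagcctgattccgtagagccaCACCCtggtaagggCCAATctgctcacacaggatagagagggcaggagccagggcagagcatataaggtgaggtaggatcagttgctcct
Hbb-bt: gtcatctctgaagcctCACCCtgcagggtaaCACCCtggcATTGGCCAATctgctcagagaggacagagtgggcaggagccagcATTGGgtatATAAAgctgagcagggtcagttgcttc
Hba-x: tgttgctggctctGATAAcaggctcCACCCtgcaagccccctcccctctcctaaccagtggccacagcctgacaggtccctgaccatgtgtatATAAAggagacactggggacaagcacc
Hba-a1: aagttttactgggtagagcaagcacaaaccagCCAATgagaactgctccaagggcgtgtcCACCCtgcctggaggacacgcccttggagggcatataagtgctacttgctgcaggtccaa
Capitals mark matches on either strand to CACCC, to the box letters CCAAT, to the erythroid motif core GATAA and to ATAAA, part of a TATA box. Such motifs are known from globin promoters. The matches to GATAA and to ATAAA can share bases. CACCC occurred in all 6 matched genes, against 31.3% of 27025 mouse promoters in the same window. CCAAT occurred in 5 of 6, all but Hba-x, against 22.1%. ATAAA, in 3 of 6 against 20.8%, was found in Hbb-y, Hbb-bt and Hba-x, and GATAA, in 1 of 6 against 10.7%, in Hba-x alone of the 6. Hba-a1 and Hba-a2 share an unbroken run of 117 bases in this window. Hbb-bs and Hbb-bt share at most 14 bases in a row, and the 13 other pairs of the 6 genes share 6 to 10. The matches did not separate the genes by class: CACCC and CCAAT were both present in Hbb-y and in all 4 adult genes.

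The libraries held 10203679 to 15590223 counts with vehicle and 11025409 to 15635322 with GPI. The 7 globin genes together took 0.0156% to 0.0406% of all counts with vehicle and 0.00663% to 0.0195% with GPI, so they were a minor part of the RNA in every testis. Levels below are normalized counts, that is counts brought to the average TMM-scaled library size, and fold changes are GPI over vehicle within a mouse. All 7 genes passed the filter on low counts. In edgeR's quasi-likelihood test, with p adjusted after Benjamini-Hochberg over 13941 tested genes, 5 of the 7 globin genes passed an FDR of 0.05, and each of these 5 was lower with GPI. Among all tested genes, 22.9% passed in either direction, 11.9% as lower and 11.1% as higher. The same 5 genes were lower in each of 5 mice, as were 15.2% of all tested genes. In 2 of the 7, Hbb-bs and Hbb-bt, every GPI-treated testis lay below every vehicle testis, as in 9.05% of tested genes. The median log2 fold change was -0.98 over the 3 embryonic genes, -2.71 over the 4 adult genes and 0.02 over all tested genes. These are whole organs, in which fewer red cells and less globin RNA per red cell cannot be told apart.

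**Figure D1:**
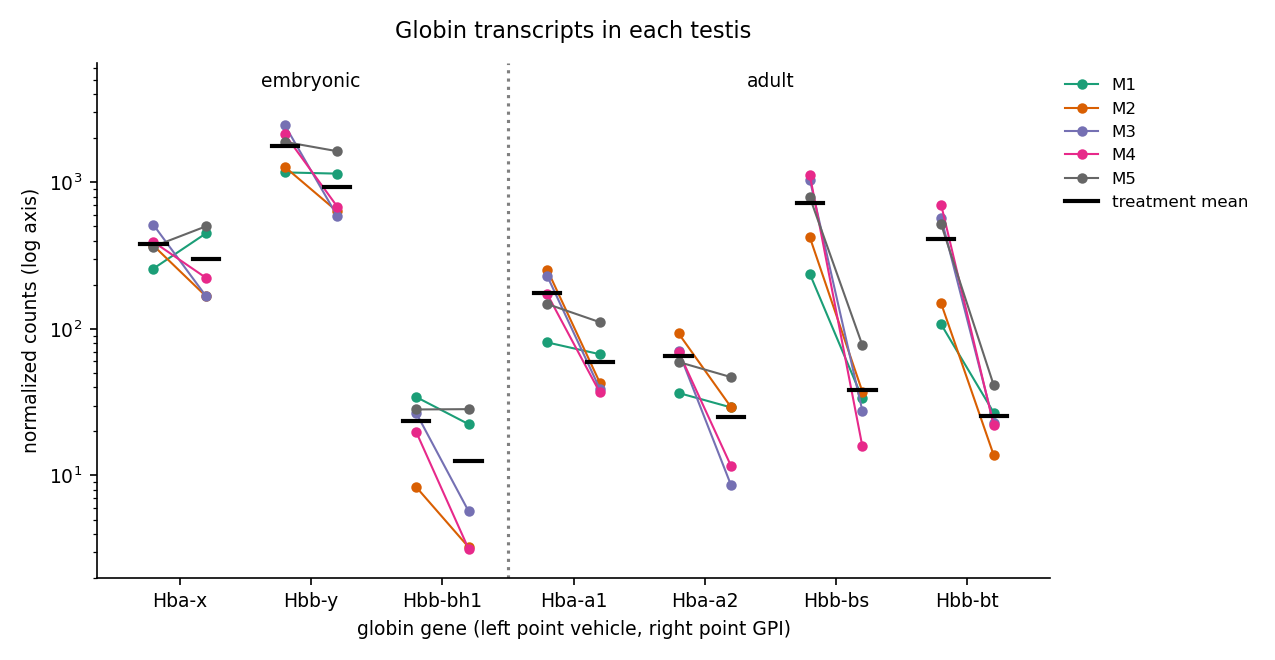
Normalized counts of each globin gene (log axis) in the vehicle testis (left point) and GPI-treated testis (right point) of each mouse, joined by a line; black bars are treatment means of 5 testes. In Hbb-bs and Hbb-bt all GPI points, at most 77.4 and 41.4, lie below all vehicle points, at least 237 and 107, whereas in Hbb-y and Hba-x the treatments overlap.

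Hbb-y encodes the embryonic beta-like chain called epsilon-y and was the globin gene with the most counts in every library. In the vehicle testes of mice M1 to M5 it stood at 1169, 1276, 2460, 2129 and 1889 normalized counts, and in their GPI-treated testes at 1147, 633, 589, 683 and 1631. The GPI values of M1 and M5 lay inside the vehicle range or just under it, close to the vehicle testis of the same mouse, and those of M2, M3 and M4 lay well below it. The mean was 1785 ± 553 with vehicle and 937 ± 448 with GPI (SD, n = 5), a log2 fold change of -0.98 with a standard error of 0.23 (adjusted p = 0.0075, edgeR's quasi-likelihood test, Benjamini-Hochberg), or 1.98-fold lower.

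Hba-x, the embryonic alpha-like gene that encodes the zeta chain, stood at 258, 369.9, 513, 392 and 365 normalized counts in the vehicle testes of M1 to M5 and at 449, 167, 167, 223 and 501 in their GPI-treated testes. It was higher with GPI in M1 and M5 and lower in M2, M3 and M4, and the groups overlapped. Its log2 fold change of -0.45 (standard error 0.28) did not pass (adjusted p = 0.296, edgeR's quasi-likelihood test, Benjamini-Hochberg). Without mouse M1 the log2 fold change was -0.78 and the adjusted p 0.032. Without M5 the log2 fold change was -0.70, without M2 -0.27 and without M3 -0.18, and none of these passed. Over 14 alternative settings the adjusted p ran from 0.032 to 0.739.

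Hbb-bh1, an embryonic beta-like gene used chiefly by yolk sac red cells, was near the limit of detection, with 7 to 37 raw counts in a vehicle library and 3 to 26 in a GPI library. Its normalized counts were 34.3, 8.35, 26.8, 19.9 and 28.2 with vehicle in M1 to M5 and 22.4, 3.24, 5.71, 3.16 and 28.3 with GPI. M2, M3 and M4 again had the lowest GPI values, and M5 had about equal values in both testes. The log2 fold change of -1.17 (standard error 0.46) did not pass (adjusted p = 0.0886, edgeR's quasi-likelihood test, Benjamini-Hochberg).

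Hbb-bs and Hbb-bt encode the adult beta chains of mice of this strain. Hbb-bs stood at 237, 421, 1043, 1117 and 789 normalized counts in the vehicle testes of M1 to M5 and at 33.6, 37.3, 27.6, 15.8 and 77.4 in their GPI-treated testes. Hbb-bt stood at 107, 149, 574, 703 and 517 with vehicle and at 26.9, 13.8, 22.8, 22.1 and 41.4 with GPI. In both genes M1 and M2 had the lowest vehicle values, M5 had the highest GPI value, and the treatments did not overlap. Hbb-bs was downregulated 17.5-fold (log2 fold change -4.13 with a standard error of 0.34, adjusted p = 1.52e-06) and Hbb-bt 14.3-fold (-3.84, 0.31, adjusted p = 1.21e-06) in edgeR's quasi-likelihood test (Benjamini-Hochberg). Among the tested genes ordered by log2 fold change from the most negative, Hbb-bs was number 48 and Hbb-bt number 68.

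Hba-a1 and Hba-a2 encode the adult alpha chain. Hba-a1 stood at 80.8, 253, 229, 172 and 148 normalized counts with vehicle in M1 to M5 and at 67.2, 43.0, 39.0, 36.8 and 111 with GPI, and Hba-a2 at 36.5, 93.1, 70.4, 69.7 and 59.4 with vehicle and at 29.1, 29.2, 8.56, 11.6 and 46.9 with GPI. In both genes the GPI-treated testes of M1 to M4 lay below all vehicle testes, that of M5 lay above the vehicle testis of M1, and M1 had the lowest vehicle value. Hba-a1 was downregulated 3.01-fold (log2 fold change -1.59, standard error 0.33, adjusted p = 0.00333) and Hba-a2 2.82-fold (-1.49, 0.39, adjusted p = 0.0138) in edgeR's quasi-likelihood test (Benjamini-Hochberg). The call of Hba-a2 rested on M2, M3 and M4. Without each of them in turn its adjusted p was 0.0549, 0.0596 and 0.0655 in edgeR's quasi-likelihood test. Its log2 fold change was then -1.44, -1.20 and -1.25. Over 13 alternative settings the adjusted p of Hba-a2 ran from 0.000903 to 0.0655. Hba-a1 kept its call in all 14 settings run.

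Counts of different genes within a library were then set against each other, which needs no scaling between libraries. In the vehicle testes of M1 to M5 there were 3.17, 1.80, 1.57, 1.23 and 1.51 embryonic globin counts for each adult globin count, and in the GPI-treated testes 10.3, 6.52, 7.78, 10.5 and 7.81. The ratio was higher with GPI in 5 of 5 mice, and no GPI value fell in the vehicle range. The within-mouse difference of the log2 ratio was 2.27 ± 0.54 (SD, n = 5 mice), or 4.82-fold. The log2 difference of the summed adult level was -3.15 ± 1.27, and that of the summed embryonic level was -0.89 ± 0.91; embryonic globin was higher with GPI in 1 of 5 mice, M1, by 0.15. The difference between the classes was not tested.

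The shift was larger in the beta cluster than in the alpha cluster in each mouse. Adult genes held 22.2%, 30.8%, 39.4%, 45.9% and 40.5% of the beta-like counts in the vehicle testes of M1 to M5 and 4.91%, 7.43%, 7.82%, 5.23% and 6.68% in the GPI-treated testes. Of the alpha-like counts they held 31.3%, 48.3%, 36.9%, 38.1% and 36.2% with vehicle and 17.7%, 30.2%, 22.1%, 17.8% and 24.0% with GPI. Vehicle and GPI shares did not overlap in either cluster, although in the alpha cluster they came close, with M2 highest in both treatments. The log2 embryonic to adult ratio was higher with GPI by 3.01 ± 0.61 (SD, n = 5 mice) in the beta cluster, with single mice between 2.47 and 3.94, and by 1.12 ± 0.24 in the alpha cluster, with single mice between 0.85 and 1.51. Whether the clusters differ was not tested.

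**Figure D2:**
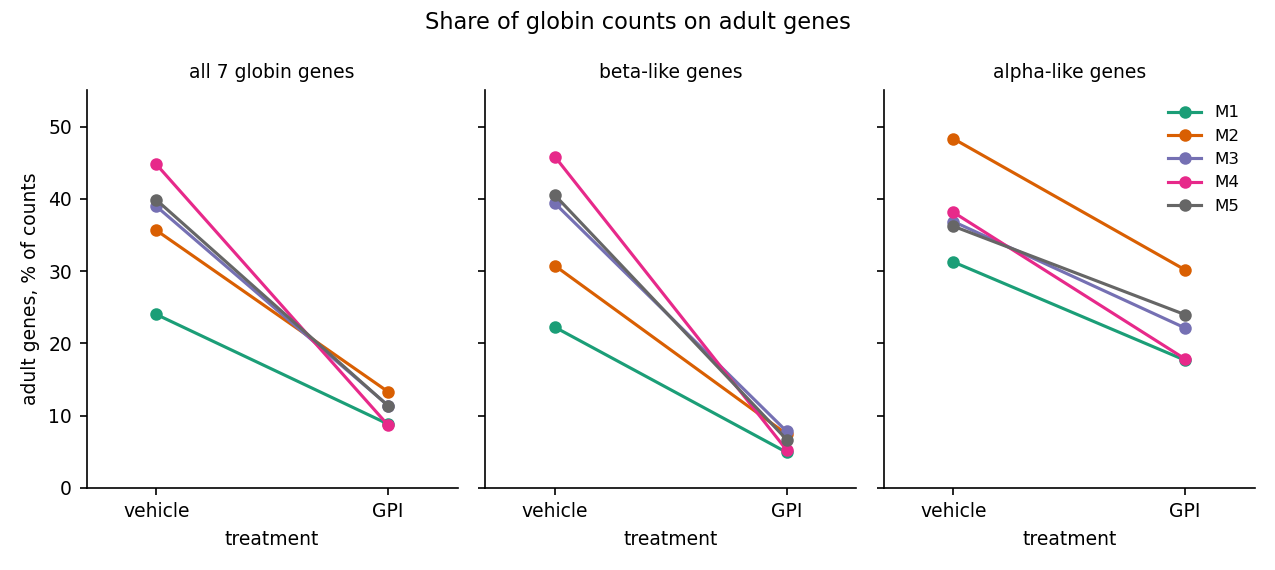
Percent of globin counts that fell on adult genes, in the vehicle and GPI-treated testis of each mouse (lines join testes of 1 mouse), for all 7 genes, the beta-like genes and the alpha-like genes. All GPI points lie below all vehicle points in each panel, and the beta-like shares with GPI lie between 4.91% and 7.82%.

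Alpha-like and beta-like totals changed by different amounts. The libraries of M1 to M5 held 0.242, 0.386, 0.198, 0.160 and 0.177 alpha-like counts for each beta-like count with vehicle and 0.443, 0.348, 0.333, 0.375 and 0.371 with GPI. The ratio was higher with GPI in 4 of 5 mice and lower in M2, whose vehicle testis had the highest vehicle ratio and overlapped the GPI range. The mean log2 difference was 0.75 ± 0.54 (SD, n = 5 mice), or 1.33 from geometric means, which weigh each gene equally, and was not tested. Within the adult pairs, the Hbb-bs to Hbb-bt count ratio lay between 1.53 and 2.82 with vehicle and between 0.714 and 2.71 with GPI, and the Hba-a1 to Hba-a2 ratio between 2.21 and 3.25 and between 1.47 and 4.56, with overlap in both pairs.

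All 7 genes together summed to 1923, 2570.3, 4916, 4603 and 3796 normalized counts in the vehicle testes of M1 to M5 and to 1775, 927, 859.6, 995 and 2438 in their GPI-treated testes. The sum was lower with GPI in 5 of 5 mice, with a log2 difference of -0.12 in M1, -0.64 in M5, -1.47 in M2, -2.52 in M3 and -2.21 in M4. The groups overlapped, since the GPI-treated testis of M5 stood above the vehicle testis of M1. The mean log2 difference was -1.39 ± 1.02 (SD, n = 5 mice), or 2.62-fold lower.

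Levels of different genes were compared per length, as TMM-scaled CPM per kilobase of transcript. With vehicle the order was Hbb-y (229 ± 70.9, SD, n = 5), Hbb-bs (93.2 ± 49.6), Hbb-bt (47.4 ± 30.8), Hba-x (38.5 ± 9.19), Hba-a1 (20.5 ± 7.92), Hba-a2 (9.64 ± 3.0) and Hbb-bh1 (3.11 ± 1.31). Within single libraries each gene stood above the next in 5 of 5, except that Hbb-bt stood above Hba-x in 3 of 5, with ratios from 0.459 to 2.04, so these 2 did not differ beyond their spread. With GPI the order was Hbb-y (120.1 ± 57.5), Hba-x (30.6 ± 16.3), Hba-a1 (6.90 ± 3.64), Hbb-bs (4.95 ± 3.01), Hba-a2 (3.67 ± 2.27), Hbb-bt (2.93 ± 1.17) and Hbb-bh1 (1.66 ± 1.58). Hbb-y led in both treatments and Hba-x moved from the fourth to the second place. Within GPI libraries each gene again stood above the next in 5 of 5, by as little as 1.04-fold for Hba-a1 over Hbb-bs and 1.02-fold for Hbb-bs over Hba-a2, except that Hba-a2 stood above Hbb-bt in 3 of 5 (ratios 0.476 to 2.69), so these 2 did not differ beyond their spread. These levels use the full transcript length; if pairs from stretches shared by both copies were not counted, the adult genes stand too low in both orders, and their places against Hbb-y and Hba-x are uncertain.

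Other globin genes of the table were examined next. Hbb-bh2, Hbq1b, Mb (myoglobin) and Ngb (neuroglobin) had at most 2.43 normalized counts in any library, and Hbq1a was at 0 in all 10. Cygb, which encodes cytoglobin, a globin of fibroblast-like cells and not of red cells, was the 1 gene of this group with enough counts to test. It stood at 565, 597, 760.5, 632 and 619 normalized counts with vehicle in M1 to M5 and at 180.2, 242, 287, 183 and 223 with GPI, with no overlap, and was downregulated 2.86-fold (log2 fold change -1.52, standard error 0.10, adjusted p = 2.74e-07, edgeR's quasi-likelihood test, Benjamini-Hochberg). Unlike the embryonic and adult globin genes, Cygb fell by a like amount in each mouse. The log2 ratio of Hbb-bs, for example, ran from -6.14 to -2.82 over single mice.

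Genes of the red cell membrane and of red cell enzymes were mostly lower as well. Of 15 tested genes of this list 10 were downregulated and 0 upregulated, with a median log2 fold change of -2.10 against 0.02 over all tested genes. Of all tested genes, 11.9% were called as lower. Hemgn, a nuclear protein of erythroid cells, stood at 83.0, 62.05, 204, 237 and 299 normalized counts with vehicle in M1 to M5 and at 7.83, 3.24, 8.56, 0 and 9.81 with GPI, a log2 fold change of -4.81, and Slc4a1, the band 3 anion exchanger, had a log2 fold change of -4.80. The vehicle testes of M1 and M2 were the lowest for Hemgn, as they were for Hbb-bs and Hbb-bt, but unlike Hbb-y and Hba-x, Hemgn was low with GPI also in M1 and M5. The summed level of the list, in which the broadly expressed Epb41 had the most counts, was 2776, 2913, 3453, 3649.7 and 3579 with vehicle and 1779.6, 2053, 2107, 1991 and 2120.4 with GPI.

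Regulators of erythroid genes and of the switch from embryonic to adult globin were examined as well. Among all tested genes, 11.9% were called as lower and 11.1% as higher. Of the 10 tested regulators 4 were downregulated and 0 upregulated (median log2 fold change -0.45). They were Lmo2 (-2.67) and Tal1 (-3.29), partners in a transcription factor complex of blood and endothelial cells, Klf1 (-1.71), an activator of the adult beta globin gene that binds CACCC boxes, and Igf2bp1 (-0.36), an RNA-binding protein of fetal cells. Klf1 stood at 24.4, 17.9, 51.4, 35.9 and 87.6 normalized counts with vehicle in M1 to M5 and at 8.95, 12.2, 11.4, 14.7 and 10.9 with GPI, without overlap. Bcl11a, a repressor of embryonic and fetal globin genes, had a log2 fold change of -0.53 (adjusted p = 0.0634, edgeR's quasi-likelihood test, Benjamini-Hochberg), and Lin28b and Sox6, also tied to globin switching, had 0.29 and 0.22, and none of these 3 passed. Gata1, with 4.48 to 19.99 normalized counts over the 10 libraries, was too low to test. Its mean was 8.59 with vehicle and 10.6 with GPI, and it was lower in 3 mice and higher in 2. Epor, Gfi1b and Nfe2, also too low to test, had lower means with GPI.

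Of 15 tested genes of heme synthesis and iron supply 3 were downregulated and 1 upregulated (median log2 fold change -0.03), a share close to the 22.9% called among all tested genes. The mitochondrial iron importer Slc25a37 had a log2 fold change of -0.997, the transferrin receptor Tfrc -0.73 and Alas2, the erythroid form of the first enzyme of heme synthesis, -0.75, and the gene that rose was Alas1 (0.45), the form used by most other cells. Alas2 stood at 124, 144, 182, 133 and 139 normalized counts with vehicle and at 97.4, 86.7, 91.3, 72.6 and 81.7 with GPI, so that it fell in 5 of 5 mice and remained well above 0. Of 7 tested genes for the clearance of heme and iron, 4 were upregulated and 0 downregulated (median 0.41): Fth1 (0.41) and Ftl1 (0.48), the ferritin chains, Slc40a1 (0.41), the iron exporter ferroportin, and Spic (1.63), a transcription factor of iron-recycling macrophages with 6.80 ± 6.37 normalized counts with vehicle and 18.8 ± 6.39 with GPI (SD, n = 5).

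Of the genes beside the alpha globin cluster on chromosome 11, 4 were tested. The share called in either direction among all tested genes was 22.9%. Rhbdf1 was downregulated (log2 fold change -1.06), and Nprl3 (0.26), the gene whose introns hold the main alpha globin enhancers, Mpg (-0.20) and Snrnp25 (0.01) did not pass. Polr3k (0.39), which was upregulated, and Luc7l (-0.20) and Fam234a (0.33), which did not pass, were listed with them but lie on chromosomes 2 and 17 in the mouse.

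**Figure D3:**
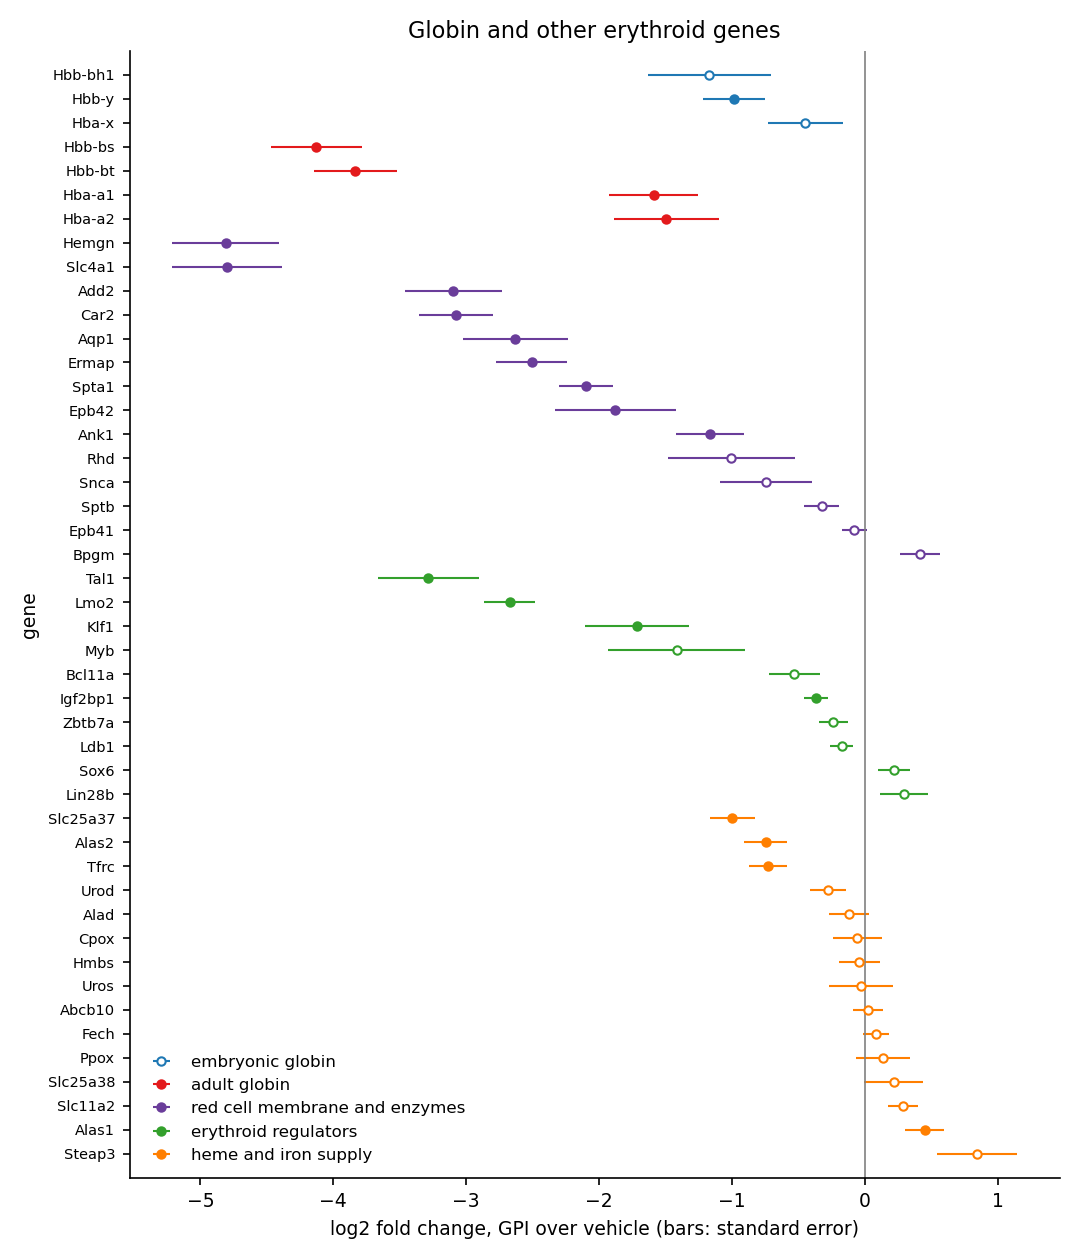
Log2 fold change with its standard error, GPI over vehicle, of the tested globin genes and of tested genes of 3 erythroid lists; filled points passed an FDR of 0.05. Hbb-bs (-4.13) and Hbb-bt (-3.84) lie with Hemgn (-4.81) and Slc4a1 (-4.80), and Hba-x (-0.45) and Hbb-y (-0.98) lie nearer to 0.

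Markers of other cell types that carry or surround blood also moved. For the lists that follow, the shares among all tested genes were 11.9% called as lower and 11.1% as higher. Of 10 tested endothelial genes, which mark the vessel wall, 10 were downregulated (median log2 fold change -3.10), with the smallest p in Cdh5 (-3.63), Pecam1 (-4.16) and Kdr (-2.44). Their summed level, with Cdh5 the most abundant with vehicle and Kdr with GPI, was 7180, 7691, 7052, 8065 and 7292 normalized counts with vehicle in M1 to M5 and 885, 1059, 718, 586 and 747 with GPI. The sum was lower by a like amount in each mouse.

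Of 9 tested macrophage genes 8 were downregulated (median -1.91), with the smallest p in Csf1r (-2.22), Lyz2 (-1.65) and C1qb (-1.91). Their summed level, with Lyz2 the most abundant by mean in both treatments, was 1152, 929.6, 960.3, 851 and 878 with vehicle and 490.2, 429.7, 455, 270.4 and 252 with GPI. Of 4 tested neutrophil genes 4 were downregulated (median -4.19), namely S100a9 (-4.42), S100a8 (-5.01), Ngp (-3.90) and Ltf (-3.97), and their list, with S100a9 the most abundant by mean in both treatments, summed to 588, 785, 976, 220.1 and 1682 with vehicle and to 5.60, 171, 39.9, 4.21 and 28.3 with GPI. Of 4 tested platelet genes 2 were downregulated (median -1.52), Vwf (-2.88) and Pf4 (-2.66). Gp1ba (-0.38), the most abundant with GPI, and Itga2b (0.17) did not pass. The platelet list summed to 85.3, 178, 114, 279.9 and 177 with vehicle and to 71.6, 35.7, 53.2, 67.3 and 63.2 with GPI. Each of these sums was lower with GPI in 5 of 5 mice.

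Of the cells of the testis itself, germ cell genes fell, with 3 of 3 tested downregulated (median -4.62): Dppa3 (-5.20), Dazl (-4.62) and Ddx4 (-2.72). Their summed level, with Dazl the most abundant with vehicle and Ddx4 with GPI, was 854, 1920, 1136, 1573 and 571 with vehicle and 128, 101, 22.8, 32.6 and 97.0 with GPI. Of 8 tested Sertoli cell genes 6 were upregulated (median 0.57), with the smallest p in Sox8 (1.43), Sox9 (0.59) and Dhh (0.92). Amh (0.08) and Cst9 (-0.19) did not pass. The sum of the Sertoli list, with Aard the most abundant by mean in both treatments, was 3037, 4684, 3475, 4505 and 4845 with vehicle and 3339.8, 6439.5, 6549.6, 8327 and 6287 with GPI. Of 4 tested fetal Leydig cell genes 4 were upregulated (median 2.32), with the smallest p in Cyp17a1 (3.90), Cyp11a1 (2.90) and Hsd3b1 (1.75), and their sum, with Hsd3b1 the most abundant with vehicle and Cyp11a1 with GPI, was 1280, 2700.4, 3979.8, 1991 and 5303 with vehicle and 9634, 10119, 15749, 18089 and 12928 with GPI. The direction of these 3 lists was the same in 5 of 5 mice. The tissue label was borne out by Sox9 in every library, and the 4 tested Leydig genes were counted in every library. Insl3, the other gene of the Leydig list, was too low to test, with at most 7.36 normalized counts.

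Genes of the mesonephros and its ducts differed between testes. Of the 2 tested mesonephros and duct genes, Epcam (-2.19) was downregulated and Pax8 (-0.28) did not pass. The list, with Pax8 the most abundant by mean in both treatments, summed to 984, 187, 421, 221 and 114 normalized counts with vehicle in M1 to M5 and to 203, 323, 137, 117 and 119 with GPI. It was highest in the vehicle testis of M1, the mouse whose vehicle testis was lowest in 6 of the 7 globin genes and highest in the seventh, Hbb-bh1. The vehicle testis of M3, next highest in the list at 421, had the highest globin sum of the vehicle testes, 4916. Without M1, 6 of the 7 globin genes were called, with log2 fold changes of -4.39 for Hbb-bs, -4.22 for Hbb-bt and -1.24 for Hbb-y, and the log2 embryonic to adult ratio was higher by 2.41. The part of these cell types in the globin differences was not tested. No gene of these lists other than Hbq1a was at 0 in all 10 libraries; at 0 in all 5 GPI libraries were Gfi1b, Trim58, Elane, Treml1, Hbb-bh2 and Hbq1b.

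**Figure D4:**
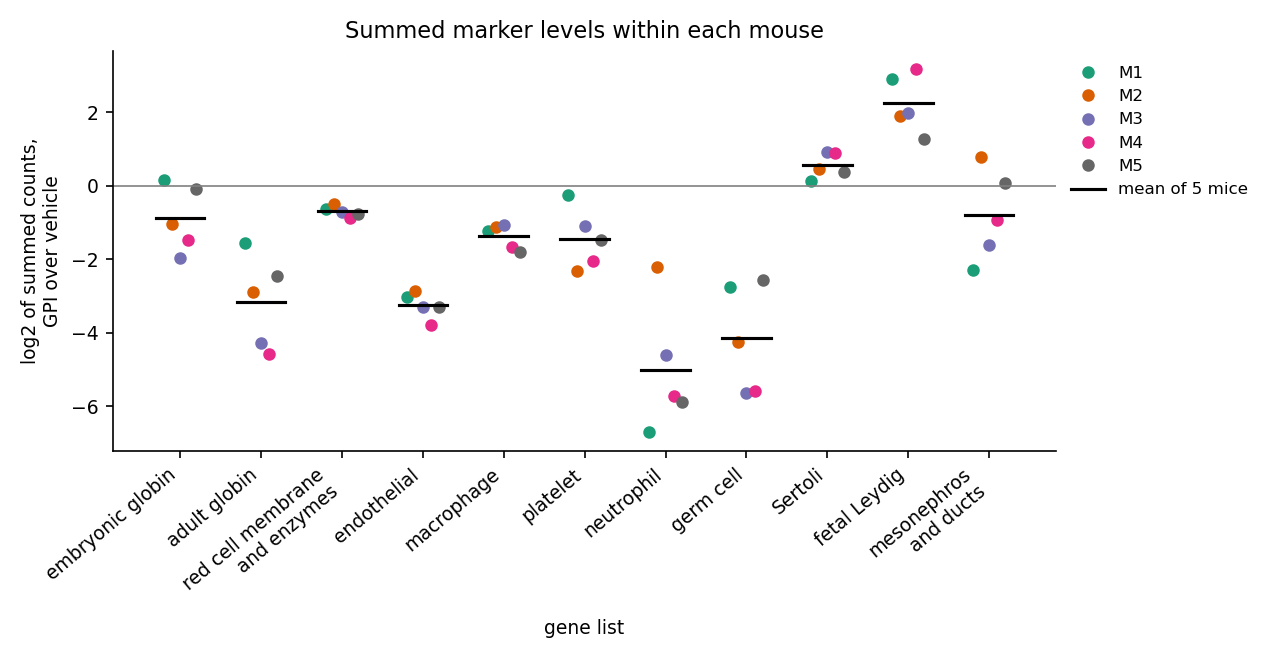
Log2 ratio, GPI over vehicle, of the summed normalized counts of each gene list in each mouse; bars are means of 5 mice. The embryonic globin sum was near 0 in M1 (0.15) and M5 (-0.08) and lower in the other 3 mice. The adult globin sum, between -4.58 and -1.56, and the germ cell sum, between -5.64 and -2.56, also fell least in M1 and M5, and the endothelial sum lies between -3.78 and -2.86.

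To find genes that varied between libraries of a treatment as the globins did, each library's deviation from its treatment mean was averaged over the 7 globin genes and correlated with that of 12908 other genes across the 10 libraries. Among the 8 highest were Dis3l2 (r = 0.919), Colec11 (0.915), Epm2aip1 (0.895), Cuedc1 (0.894), E030030I06Rik (0.894), Gm14305 (0.888) and Slc39a13 (0.888). These values are the extremes of many genes over 10 libraries that share mice and depth, and are given as a description. None of the 8 is on the lists above. Colec11 also differed with treatment, from 65.9 normalized counts with vehicle to 13.3 with GPI (log2 fold change -2.40). Epm2aip1 was higher with GPI, at 2300 and 2698 (0.23), while Dis3l2, with 150.7 and 158.4, did not pass.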

How the data were processed

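RNA of 10 cultured testes, 1 library each, was measured as read pairs. The authors mapped them to mm10 with STAR (version 2.5 in the submitters' processing notes) and counted them per gene without regard to strand with featureCounts (Subread 1.5.0-p1); the deposited values are raw counts. The options given for featureCounts name none for pairs that match several places, which the program leaves out unless told otherwise. The table had 24470 entries and 0 other per-sample columns.

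Counts were filtered by edgeR's filterByExpr by treatment (minimum count 10, minimum total 15), which kept 13941 genes, scaled by TMM, and tested with edgeR's quasi-likelihood test with mouse and treatment in the design (FDR 0.05). The same filter by the paired design was run first, kept 15010 genes and became an alternative added after seeing the data. Both gonads of an embryo carry 1 animal label, which gives the pairing; deviations from treatment means correlated by 0.06 within and -0.0147 between mice, and 3108 genes were called with no replicate block. Duplicate libraries were checked for (chi-square per degree of freedom 6.42 to 27.8 within treatments). The procedure was tested on simulated data. Sums and ratios were described without a test.

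Named genes were the 7 globin genes, the genes of the lists, with the 3 smallest p of each named first, and the 8 genes of at least 20 mean counts most correlated with the globins (log2 CPM, prior count 2). Some genes under this rule are not reported here. Members and lists were chosen with earlier results of these data known. Transcript lengths came from GENCODE transcripts and promoters from RefSeq. R 4.3.3 ran edgeR 4.0.16, with DESeq2 1.42.0 and limma 3.58.1 as alternatives, and Python 3.11.15 ran matplotlib 3.10.9, pandas 2.3.3 and numpy 2.4.6 (seed 1).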

Additional observations from a re-analysis of the deposited data

Results flagged for a closer look

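In each treatment the lowest or highest of 5 testes was compared with its nearest neighbour over 50 groups; chance marks about 1 in 20 groups. Single genes and list sums were compared as normalized counts, and the globin sum and ratios as log2 values, so the gaps are on unlike scales. In 2 groups the gap exceeded 0.71 of the range. A list of 8 genes, 5 beside the alpha globin cluster and 3 on other chromosomes, summed to 1812 normalized counts in the vehicle testis of M3, against 1993 in the next lowest (0.756 of the range). Neutrophil genes summed to 171 in the GPI-treated testis of M2, against 39.9 in the next highest (0.786). No globin gene, sum or ratio among these groups stood apart in this way. The share of Hbb-y in the globin counts was not among them. It was 60.8% in the vehicle testis of M1 and 46.2% to 50.0% in the other vehicle testes.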

How the results depend on the processing

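The 7 globin genes kept a negative log2 fold change in every setting in which they were tested. Hbb-bs, Hbb-bt, Hba-a1 and Hbb-y passed in all 14 settings, including DESeq2, limma-voom, other scalings and other filters. The number of globin genes called was 4 to 6 with a mouse left out, 4 with at least 10 counts in every library, where Hba-a2 and Hbb-bh1 were not tested, and 5 in the other settings, including no replicate block. Genes called in all numbered 2311 to 3082 with a mouse left out and 2819 to 3472 otherwise, with 3288 for the filter by the paired design, an alternative chosen after seeing the data. The summed globin level changed by -1.71 to -1.11 on the log2 scale over its 10 settings. The log2 embryonic to adult ratio was higher by 1.85 to 2.41 over 8 settings and that of the beta cluster by 2.78 to 3.23. The log2 alpha to beta ratio was higher by 0.63 to 0.98 with a mouse left out, and by 1.33 in place of 0.75 from geometric means.

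Reads shared by near-identical adult copies, counts of 3 to 37 for Hbb-bh1, and 5 mice limit the precision. Leaving out M1, M2, M3 or M4 changed the call of Hba-x or Hba-a2. Counts of amplified libraries are not independent molecules. Cell numbers were not measured in these libraries.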
